A study of Mus musculus with 10 samples.

Results

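Genomic imprinting restricts transcription of a small set of genes to the copy inherited from 1 parent. The genes examined here are 7 imprinted genes from 5 clusters, namely H19 and Igf2, Meg3 and Rian, Igf2r, Peg3, and Grb10, and they were chosen by name. In the tables of union peaks, no peak carries more than 1 gene. For H4K20me1, 14 of 44925 peaks were listed with 6 of these genes, out of 14565 genes with a peak. For RNA polymerase II phosphorylated at serine 2 (Pol II S2P), 33 of 51322 peaks were listed with 5 of them, out of 11251 genes. The symbols of Igf2, Igf2r, Peg3 and Grb10 are given in the tables, whereas H19, Meg3 and Rian are listed by Ensembl identifier alone and were matched through GENCODE M21.

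CUT&RUN was applied to muscle stem cells (MuSCs, the satellite cells of skeletal muscle). In this assay an antibody tethers protein A-MNase to chromatin inside permeabilised cells, and the DNA that the enzyme cuts free is sequenced. The control group (Ctrl) carried Pax7CreERT with wild-type Kmt5b, labelled Pax7CreERT/Suv4-20h1WT, and the mutant group (sKO) carried Pax7CreERT with floxed Kmt5b, labelled Pax7CreERT/Suv4-20h1KO. The strains were kept on a C57BL/6 background, tamoxifen was given to adult mice, and Pax7 drives the inducible Cre, so that deletion is limited to cells that express Pax7 and their progeny. Cells of both groups were purified from limb and trunk muscle and cultured before the assay. There were 2 libraries per genotype and antibody. The study describes them as biological replicates without saying whether these are separate animals or cultures, so p-values measure only the spread between these libraries. The 2 libraries with non-specific IgG were not analysed here.

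KMT5B adds the second methyl group to lysine 20 of histone H4 and thereby converts H4K20me1 into H4K20me2. H4K20me1 itself is laid down by KMT5A and is found over the bodies of transcribed genes, where Pol II S2P is the elongating form of the polymerase. Imprinted clusters are governed by control regions that carry DNA methylation on 1 parental copy, and many of them express a long non-coding RNA opposite to the protein-coding genes. H19 and Igf2 share enhancers and a control region that binds the insulator factor CTCF, and the RNA of H19 and the growth factor IGF2 are both well known from developing and regenerating muscle. The reads were not assigned to parental copies, so each value sums both, and a larger share of cells with the mark cannot be told apart from a higher level per cell.

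Values are scores, that is coverage normalised by the authors with spike-in DNA and summed over each peak, and a score grows with the length of a peak. Summed over all peaks, the scores were 15218720 and 20432644 in Ctrl against 32194136 and 35046570 in sKO for H4K20me1. For Pol II S2P they were 3257665 and 4243685 in Ctrl against 4885638 and 3435908 in sKO. Kmt5b itself had H4K20me1 scores of 1332 and 1740 in Ctrl against 1934 and 2196 in sKO, while for Pol II S2P they were 24 and 62 in Ctrl against 48 and 22 in sKO, and these peaks do not measure the deleted exons. Of 8 MuSC markers, 6 had Pol II S2P peaks, with summed scores between 4220 and 6292 per library. Myf5 and Cdh15 had none. Of 9 markers of endothelial, immune, mesenchymal, fat and myofibre cells, only Pecam1 had one, with scores between 82 and 147. For H4K20me1, which is not limited to active genes here, 6 of the 9 had peaks. Their summed scores were 1698 and 2166 in Ctrl against 4725 and 5383 in sKO. Of the 8 MuSC markers, 6 had H4K20me1 peaks, with 3339 and 4014 in Ctrl against 8617 and 9308 in sKO, and Myod1 and Cdh15 had none. H4K20me1 peaks thus do not separate the 2 sets of markers, and the part of other cell types in the results was not tested.

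On the deposited scale, the H4K20me1 score was higher in sKO for each of the 6 imprinted genes that had a peak, although Igf2, Meg3, Igf2r and Peg3 changed sign on equal totals and all 6 did with median-of-ratios scaling. The ratio of the sKO mean to the Ctrl mean ranged from 1.55 for Peg3 to 1.95 for Rian. Genes were compared with limma on log2(score + 1), and a call required an adjusted p (Benjamini-Hochberg) under 0.1 together with an absolute log2 fold change over 0.5. By this rule 6 of 6 imprinted genes were called higher on the deposited scale, against 92.3% of all 13750 autosomal genes tested. The lower sKO library exceeded the higher Ctrl library for all 6, as it did for 96.5% of all genes tested. The 6 changes ranged from 0.63 to 0.97 with a median of 0.89, and all 6 lay below the median change of all genes, which was 1.11.

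When the libraries were scaled to equal totals over all peaks, the median of all genes fell to 0.18. The 6 imprinted genes then ranged from -0.30 for Peg3 to 0.04 for Rian and Grb10. On that scale 0 of 6 were called by limma, with 2 at an unadjusted p under 0.05, while 24.0% of all genes were called higher and 4.31% lower. Of all 13752 genes tested by limma on that scale, 8393 had an unadjusted p under 0.05. The calls on the deposited scale also rested on each sKO library, since without sKO replicate 1 or without sKO replicate 2 no imprinted gene was called, while 53.8% and 38.2% of all genes were still called higher. The changes of the 6 genes ranged from 0.53 for Peg3 to 1.11 for Rian in these 2 fits, and from 0.37 for Meg3 to 1.16 for Grb10 over the fits that left out any 1 of the 4 libraries.

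**Figure D1:**
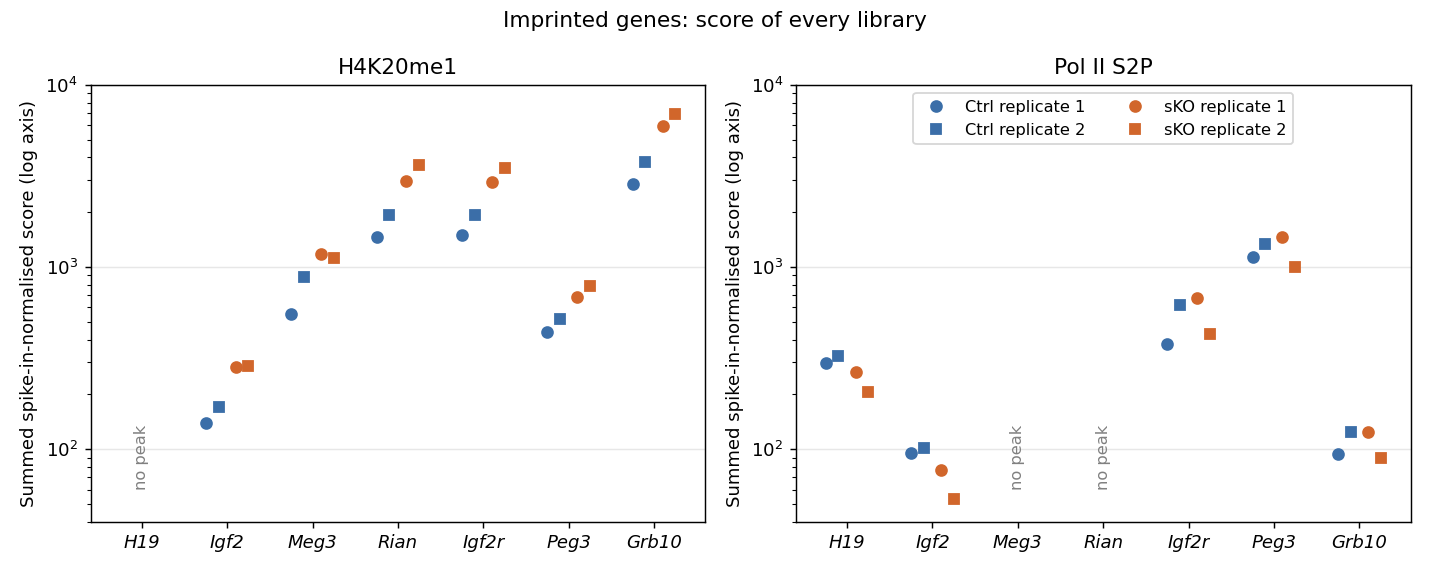
Summed H4K20me1 score (left) and Pol II S2P score (right) of each imprinted gene in each library, on log axes, with circles for replicate 1 and squares for replicate 2. Both sKO points lie above both Ctrl points for the 6 genes with an H4K20me1 peak on the deposited scale (Igf2, Meg3, Igf2r and Peg3 change sign on equal totals), while for Pol II S2P only H19 and Igf2 have both sKO points below both Ctrl points.

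**Figure D2:**
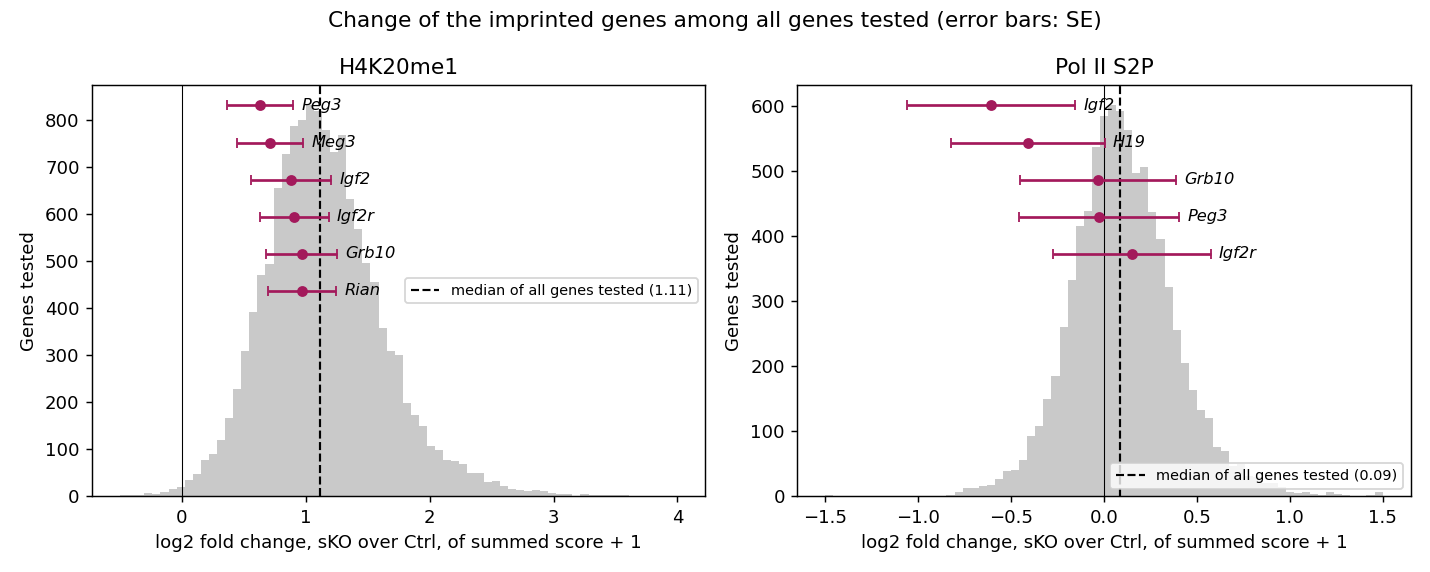
Log2 fold change between sKO and Ctrl of the imprinted genes (points, with SE) over the histogram of all genes tested, for H4K20me1 (left) and Pol II S2P (right), on the deposited scale. Values beyond the axis are drawn in the end bins. For H4K20me1 all 6 points lie left of the median of 1.11, and the points of Igf2, Meg3, Igf2r and Peg3 fall below 0 on equal totals.

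H19 (ENSMUSG00000000031) is a non-coding RNA gene on the minus strand of chromosome 7, from 142575529 to 142578143 in mm10. It had no H4K20me1 peak in either genotype. The nearest H4K20me1 peak, from 142580200 to 142587799, begins 2.06 kb upstream of its start and was listed with no gene. Its scores were 89 and 99 in Ctrl against 382 and 397 in sKO. The groups were far apart, the log2 fold change was 2.04 ± 0.33 (SE), and limma gave an adjusted p of 2.02e-08. The peak was called higher in all 12 alternative fits, with 1.12 on equal totals, where 25.8% of all peaks were called higher.

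This stretch holds the known imprinting control region of the cluster. A search of the peak for the letters CGNGGNGGC, part of the motif of CTCF, on both strands found 3 matches, all on the strand of H19 and between 2.17 and 3.89 kb upstream of its start. Windows of 7600 bases at the centre of all 41008 autosomal H4K20me1 peaks held at least 3 matches in 1.90% and at least 1 in 28.4%. The 3 sites are shown because they lie inside the peak nearest to H19, at chr7:142580295-142580334, chr7:142580750-142580789 and chr7:142582020-142582059 on the minus strand of mm10, with the matched letters in capitals. This peak did not rise alone, since all 12 H4K20me1 peaks within 100 kb of H19 were called higher on the deposited scale, by 0.88 to 3.02. Each library has 1 score for the whole peak, so its rise cannot be placed at these sites. A match is a description of the sequence and not a measurement of binding.
H19 upstream site 1: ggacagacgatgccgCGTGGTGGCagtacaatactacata
H19 upstream site 2: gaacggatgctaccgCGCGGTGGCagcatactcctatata
H19 upstream site 3: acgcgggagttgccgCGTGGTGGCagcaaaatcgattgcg

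Igf2 (ENSMUSG00000048583), the gene of insulin-like growth factor 2, lies on the same strand from 142650766 to 142666816. Its H4K20me1 peak, from 142646400 to 142652799, covers the end of the gene, with 2034 bases inside it that are all exonic, and extends past it. The scores were 139 and 171 in Ctrl against 281 and 288 in sKO. The sKO libraries were nearly alike and above both Ctrl libraries, with a log2 fold change of 0.88 ± 0.32 (SE) and an adjusted p of 0.0083. Of the 12 H4K20me1 peaks within 100 kb of H19, all 12 were called higher on the deposited scale, by 0.88 to 3.02, and the peak of Igf2 had the smallest change, where 90.1% of all peaks tested were called higher. On equal totals 7 of the 12 were called higher, where 25.8% of all peaks were called higher and 3.32% lower. The peak of Igf2 was at -0.046 on that scale. The other peaks were listed with Lsp1, Prr33, Tnnt3, Mrpl23 and Gm33148 or with no gene. Per kb of peak, the Ctrl means of the 12 peaks ranged from 6.61 to 24.2 and the sKO means from 42.3 to 61.2. The highest Ctrl mean belonged to Igf2. Ins2, an insulin gene next to Igf2, rose by 0.98 (adjusted p = 0.000536), with 938 and 1332 in Ctrl against 2180 and 2245 in sKO. On equal totals Ins2 was at 0.055 and was not called (adjusted p = 0.578).

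**Figure D3:**
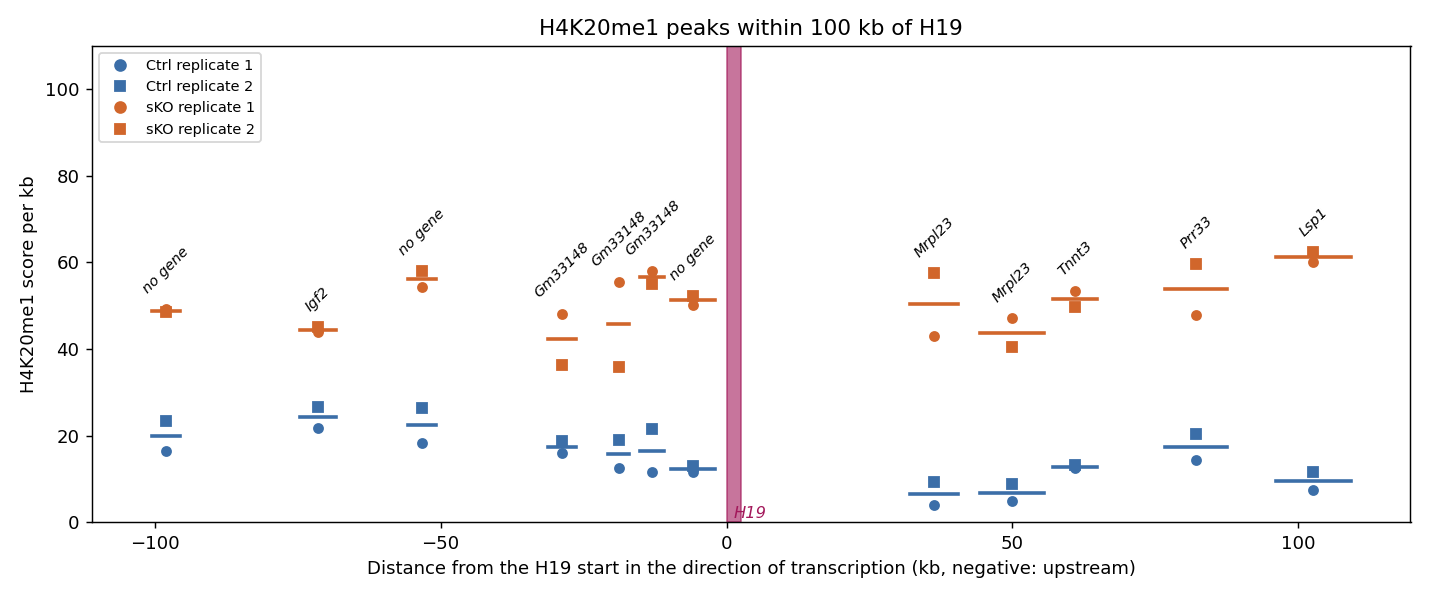
H4K20me1 score per kb of each peak within 100 kb of H19, against the distance from the H19 start, with horizontal lines for group means over the extent of each peak and points for single libraries. The 12 peaks lie between 6.61 and 24.2 in Ctrl and between 42.3 and 61.2 in sKO, and no peak covers H19 (the shaded gene).

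Meg3 (ENSMUSG00000021268) and Rian (ENSMUSG00000097451) are non-coding RNAs expressed from the maternal copy of the Dlk1-Dio3 cluster on the plus strand of chromosome 12, and Rian hosts small nucleolar RNAs and microRNAs. Meg3 spans 109541001 to 109571726, and its H4K20me1 peak, from 109548600 to 109572199, covers the gene beyond its first part. The scores were 553 and 887 in Ctrl against 1173 and 1120 in sKO, and the Ctrl libraries differed more from each other than the sKO libraries did. The log2 fold change was 0.71 ± 0.27 (SE) with an adjusted p of 0.00955, and without Ctrl replicate 1 it was 0.37 and was not called. Rian had 2 peaks, from 109620400 to 109630199 and from 109632400 to 109685399, whose sums were 1469 and 1924 in Ctrl against 2975 and 3640 in sKO. It rose by 0.97 ± 0.28 (SE), with an adjusted p of 0.00081. The first peak rose by 1.19 and the second by 0.93, and their difference was not called (adjusted p = 0.404 for a peak against the rest of its gene).

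The other genes of this cluster with an H4K20me1 peak were called higher as well. Dlk1, a ligand of the Notch family, had scores of 2576 and 3477 in Ctrl against 4776 and 5149 in sKO and rose by 0.73. Rtl1, a gene derived from a retrotransposon, rose by 0.84, Mirg, a further non-coding RNA, by 0.92, and Dio3, which inactivates thyroid hormone, by 0.92. Of the 98 kb peak listed with Dlk1, 10% lies inside the gene. These shares were 10% and 20% for the peaks of Rtl1 and 30% for that of Mirg. Most of the sequence scored for Dlk1, Rtl1 and Mirg thus lies outside them. On equal totals the changes of the 6 genes of the cluster ranged from -0.22 for Meg3 to 0.04 for Rian. No Pol II S2P peak was listed with Meg3 or Rian, and the nearest one on the chromosome lay 495 kb from Meg3 and 405 kb from Rian. Meg3 and Rian were thus listed with broad H4K20me1 union peaks that had scores in both genotypes, but with no Pol II S2P peak. Union peaks do not show in which genotype a peak was called, and a missing peak does not show that the polymerase was absent.

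Igf2r (ENSMUSG00000023830), the receptor that clears IGF2, is transcribed from the minus strand of chromosome 17, from 12682406 to 12769664. Airn, a non-coding RNA expressed from the paternal copy, starts 28.4 kb inside Igf2r at 12741311 and runs the opposite way to 12860136. The 3 H4K20me1 peaks of Igf2r lie between 12670200 and 12735999, in the part of the gene that Airn does not overlap and past its end. Together they scored 1506 and 1942 in Ctrl against 2928 and 3510 in sKO. The sKO libraries were above both Ctrl libraries, the gene rose by 0.91 ± 0.28 (SE) with an adjusted p of 0.00166, and its 3 peaks rose by 0.88, 0.93 and 0.93. Airn had H4K20me1 scores of 420 and 427 in Ctrl against 713 and 859 in sKO, and it rose by 0.88 (adjusted p = 0.00141), but on equal totals it was at -0.044 (adjusted p = 0.797). The organic cation transporter genes Slc22a2 and Slc22a3, on the far side of the cluster, rose by 0.71 and 1.0 on the deposited scale, and on equal totals they were at -0.22 and 0.072 and were not called.

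Pol II S2P peaks of Igf2r lay elsewhere. The 9 peaks lie between 12738254 and 12760118, with centres 9.82 to 31.3 kb inside the gene, and 7 of them overlap Airn. None of the 9 covers the start of Igf2r, and 1 covers the start of Airn, with scores of 29 and 67 in Ctrl against 71 and 29 in sKO. CUT&RUN reads carry no strand, so polymerase on Igf2r and on Airn cannot be told apart in the 28.4 kb that both genes share. The promoters of both genes are shown with CpG dinucleotides in capitals, as the 250 bases before the RefSeq start in mm10, at chr17:12741061-12741310 on the plus strand for Airn and at chr17:12769707-12769956 on the minus strand for Igf2r. The first holds 2 CpG and the second 27, and the median over 32851 RefSeq promoters was 6, with 8.56% holding at least 27. These counts leave out the sequence past each start. The Pol II S2P peak over the start of Airn, from 12740939 to 12741515, held 22.5 CpG per kb, the most of the 9 peaks.
Airn promoter: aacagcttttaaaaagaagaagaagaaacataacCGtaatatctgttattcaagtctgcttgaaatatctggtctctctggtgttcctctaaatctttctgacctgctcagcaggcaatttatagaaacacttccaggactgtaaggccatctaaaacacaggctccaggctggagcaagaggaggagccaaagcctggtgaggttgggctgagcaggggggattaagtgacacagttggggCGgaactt
Igf2r promoter: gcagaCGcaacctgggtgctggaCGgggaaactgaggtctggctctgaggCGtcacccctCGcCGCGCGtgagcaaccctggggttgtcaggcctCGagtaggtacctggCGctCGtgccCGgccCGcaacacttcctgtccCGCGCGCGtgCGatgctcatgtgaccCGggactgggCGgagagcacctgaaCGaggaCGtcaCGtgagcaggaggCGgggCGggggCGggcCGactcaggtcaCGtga

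**Figure D4:**
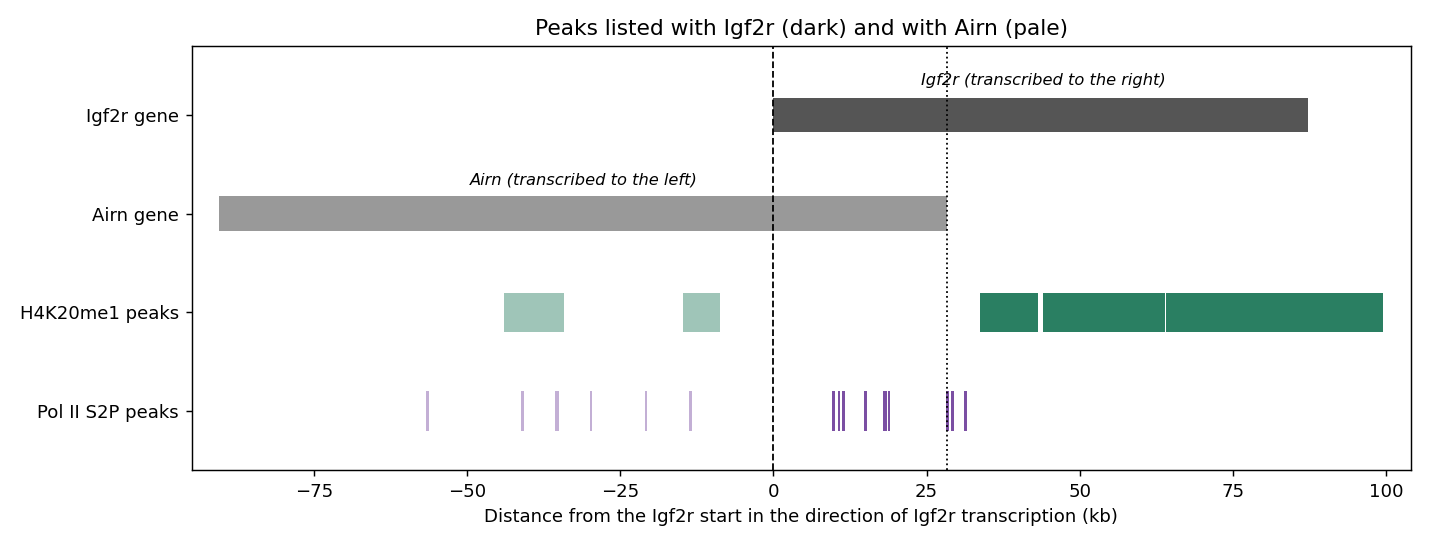
Positions of the peaks listed with Igf2r (dark) and with Airn (pale) for both antibodies, against the distance from the Igf2r start, with both genes drawn to scale. The 3 H4K20me1 peaks of Igf2r lie beyond the Airn start (dotted line), and 7 of its 9 Pol II S2P peaks overlap Airn.

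Peg3 (ENSMUSG00000002265), a zinc finger protein expressed from the paternal copy, lies on the minus strand of chromosome 7 from 6703892 to 6730431. Its 2 H4K20me1 peaks cover much of the gene but not its start. The peak from 6703600 to 6708399 scored 142 and 135 in Ctrl against 144 and 188 in sKO, and the peak from 6709800 to 6724799 scored 296 and 383 in Ctrl against 544 and 602 in sKO. The first had a log2 fold change of 0.25 with an adjusted p of 0.504, and the second rose by 0.76 with an adjusted p of 0.0094. Summed, Peg3 had the smallest H4K20me1 change of the 6 genes, with 438 and 518 in Ctrl against 688 and 790 in sKO, with a log2 fold change of 0.63 ± 0.27 (SE) and an adjusted p of 0.0215. Its value was -0.30 on equal totals and was not called there, and 12.2% of all genes tested had a smaller change.

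The neighbours of Peg3 on both sides rose more. Zim1, another zinc finger gene of the cluster, had H4K20me1 scores of 237 and 270 in Ctrl against 830 and 822 in sKO and rose by 1.70. Usp29, which starts at 6730578 opposite to Peg3, had scores of 239 and 264 in Ctrl against 1050 and 1170 in sKO and rose by 2.14. On equal totals the changes were 0.78 for Zim1 and 1.21 for Usp29. To take out the scale between libraries, each gene was set against the summed score of all other peaks within 100 kb of it. This comparison was added after the data were seen. Peg3 was called lower, at -1.19 ± 0.24 (SE), against its surroundings, with an adjusted p of 9.77e-05 in limma, and between -1.28 and -1.10 when each library was left out in turn. The surroundings, 1 peak each of Zim1 and Usp29, summed to 301 and 367 in Ctrl against 1171 and 1183 in sKO. Grb10 was called as well, at -0.76 ± 0.10 (SE) and an adjusted p of 9.94e-08 in limma, and between -0.82 and -0.70 with each library left out. Its surroundings, 5 peaks of which 4 were listed with Ddc, summed to 493 and 638 in Ctrl against 1793 and 1927 in sKO. The change of Grb10 itself was 0.97 on the deposited scale, where 37.0% of all genes tested had a smaller one, and 0.04 on equal totals. The low ratio of Grb10 thus went with a large rise of its surroundings. Of all 13442 genes with this ratio, 9.12% were called lower and 16.2% higher than their surroundings. Among the other 4 genes the values were -0.24 for Igf2, -0.06 for Meg3, 0.26 for Rian and -0.17 for Igf2r, and none was called, since that of Rian (adjusted p = 0.00711) stayed under the limit on the fold change.

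Grb10 (ENSMUSG00000020176), an adaptor protein that restrains insulin and growth factor signalling, lies on the minus strand of chromosome 11 from 11930508 to 12038683. It had the highest summed H4K20me1 score of the 6 genes, with 2875 and 3776 in Ctrl against 5978 and 6953 in sKO, and rose by 0.97 ± 0.29 (SE) with an adjusted p of 0.00112. Its 5 peaks did not change alike. The peak from 11938200 to 11986199, which lies in the later part of the gene and holds 4562 exon bases, scored 848 and 868 in Ctrl against 2302 and 2814 in sKO. It rose by 1.57 ± 0.27 (SE), and it had the lowest Ctrl level of the 5 peaks, 17.9 per kb, against 53.3 per kb in sKO.

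Nearer to the start of the gene the changes were smaller. The peak from 12009400 to 12025599 scored 436 and 602 in Ctrl against 540 and 678 in sKO, so that the groups overlapped. The peak from 11991600 to 11996599 scored 99 and 178 in Ctrl against 179 and 182 in sKO. Neither holds an exon base. Their log2 fold changes were 0.24 (adjusted p = 0.397) and 0.44 (adjusted p = 0.232), and neither was called. The peak from 12026800 to 12036399 scored 256 and 350 in Ctrl against 549 in each sKO library and rose by 0.87. The peak from 12038000 to 12083599, which covers the start of Grb10 and lies mostly upstream of it, scored 1236 and 1778 in Ctrl against 2408 and 2730 in sKO and rose by 0.79.

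Each peak of Grb10 was also set against the sum of the other 4, which removes the scale between libraries and was likewise added after the data were seen. For every peak but that from 11938200, this sum includes the peak from 11938200, which rose the most. The ratios are therefore linked, and the negative ones in part reflect the rise of that peak. The peak from 11938200 changed by 0.88 ± 0.14 (SE) relative to the rest, with an adjusted p of 0.00196, and the peak from 12009400 by -0.83 ± 0.13 (SE), with an adjusted p of 0.00137. Both were called in every fit that left out 1 library, with ranges of 0.64 to 1.13 and -0.89 to -0.77. The peak from 11991600 was called at -0.55 (adjusted p = 0.086), and this call was lost without Ctrl replicate 2, without sKO replicate 1 or without sKO replicate 2. Over 23882 peaks with such a ratio, 8.98% were called higher and 5.33% lower than the rest of their gene. Ddc, the neighbouring gene of DOPA decarboxylase, rose by 2.29, from 238 and 255 to 1223 and 1196.

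**Figure D5:**
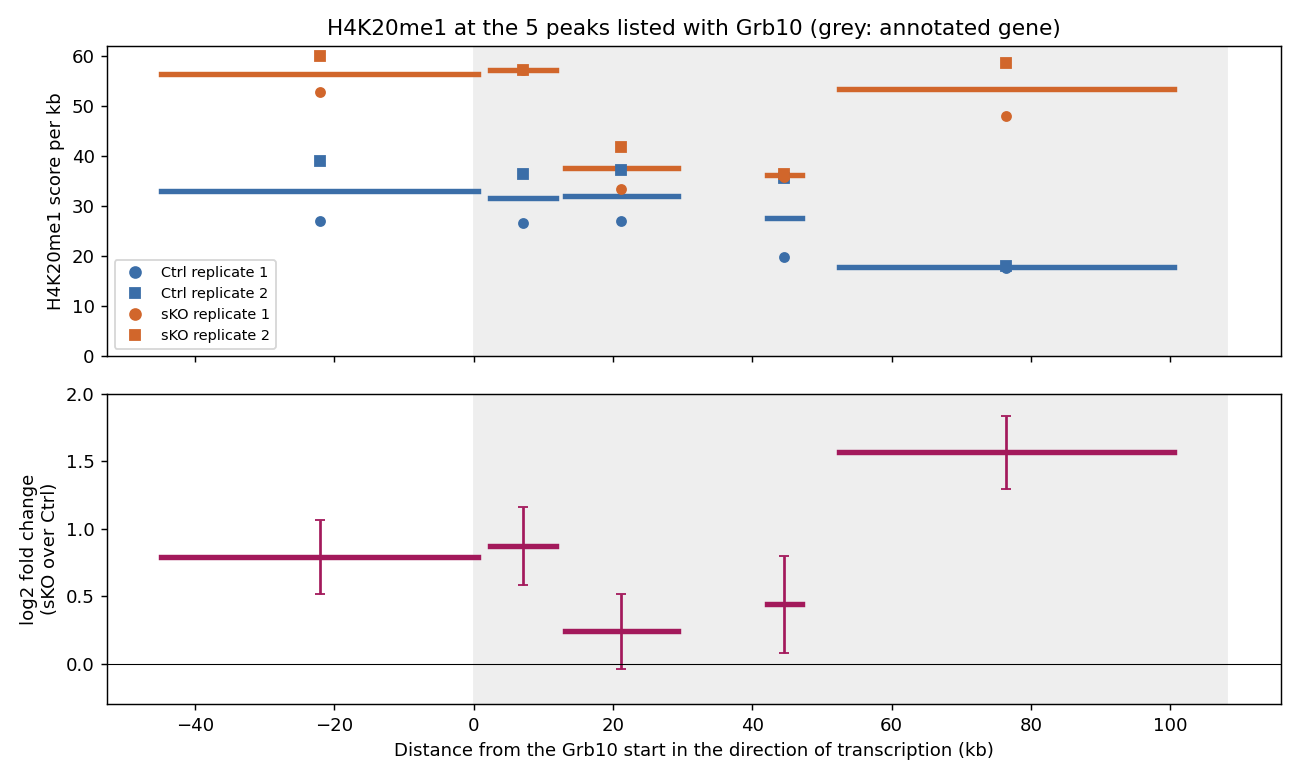
H4K20me1 at the 5 peaks listed with Grb10 against the distance from its start, as score per kb of each library with group means (top) and as log2 fold change with SE on the deposited scale (bottom). The peak centred 76.5 kb inside the gene changed by 1.57 and the peak 21.2 kb inside the gene by 0.24, and on equal totals 4 of the 5 peaks have a negative change, all but the former.

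Over single peaks, 11 of the 14 H4K20me1 peaks listed with these genes were called higher on the deposited scale, where 90.1% of all 40902 peaks tested were. The 3 others were 1 peak of Peg3 and 2 of Grb10. On equal totals 3 were called. These were the Grb10 peak from 11938200, higher by 0.64, and 2 peaks lower, at -0.69 for Grb10 and -0.68 for Peg3. Of all peaks, 25.8% were called higher and 3.32% lower on that scale. Per kb of peak, Ctrl levels of the 6 genes ranged from 24.1 ± 2.9 (SD, n = 2) for Peg3 to 30.5 ± 10 (SD, n = 2) for Meg3, and no gene was apart from its neighbour in this order. In sKO the levels ranged from 37.3 ± 3.6 (SD, n = 2) for Peg3 to 52.7 ± 7.5 (SD, n = 2) for Rian, and there both libraries of Peg3 lay below both of Igf2, and both of Igf2 below both of Meg3.

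Pol II S2P was compared in the same way. By limma, 0 of 5 imprinted genes were called and 0 had an unadjusted p under 0.05 on the deposited scale. The background was 0% called higher and 0% called lower over 8531 genes, of which 100 had an unadjusted p under 0.05. H19 and Igf2 were the only members of which both sKO libraries lay below both Ctrl libraries, as was the case for 4.52% of all genes tested. The H19 peak, from 142574360 to 142575963, covers the end of the gene and the sequence past it, and scored 296 and 326 in Ctrl against 265 and 206 in sKO. Its log2 fold change was -0.41 ± 0.41 (SE), with an adjusted p of 1 and 2.80% of all genes lower. The 3 peaks of Igf2 summed to 95 and 101 in Ctrl against 77 and 53 in sKO, with a log2 fold change of -0.61 ± 0.45 (SE), with 0.645% of all genes lower.

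Over all genes, the median log2 difference of replicate 1 minus replicate 2 was -0.40 in Ctrl and 0.48 in sKO for this antibody. On equal totals, where the median of all genes moved from 0.09 to -0.05, H19 changed by -0.55 ± 0.16 (SE) and was called lower at an adjusted p of 0.0741, against 0.855% of all genes. This call was lost without Ctrl replicate 1, without sKO replicate 1 or without sKO replicate 2, with adjusted p of 0.488, 0.429 and 0.181. Igf2 was at -0.75 ± 0.28 (SE) on equal totals, with an adjusted p of 0.171. Against all other Pol II S2P peaks within 100 kb, H19 changed by -0.15 and Igf2 by -0.20, and none of the 5 genes was called, where 0.690% of 7971 genes were called higher and 0.640% lower. The lowest of the 4 libraries was sKO replicate 2 for H19, Igf2, Peg3 and Grb10.

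Peg3 had the most Pol II S2P peaks of the members, 19, which summed to 1142 and 1345 in Ctrl against 1469 and 1007 in sKO. The sKO libraries lay on both sides of the Ctrl libraries, and the log2 fold change was -0.03 ± 0.43 (SE). The peak with the highest score, from 6727284 to 6729171, lies in the first intron, 2.2 kb inside the gene, with 534 and 541 in Ctrl against 522 and 399 in sKO. The next peak towards the start, from 6729236 to 6729987, had 134 and 124 in Ctrl against 113 and 72 in sKO. Both sKO libraries were the lower ones at these 2 peaks, at log2 fold changes of -0.24 and -0.51, and neither was called. At 4 of the 19 peaks both sKO libraries were the higher ones, and at the other 13 the groups overlapped. Among these 4 was the peak from 6721909 to 6722402, with 51 and 35 in Ctrl against 86 and 68 in sKO, whose log2 fold change of 0.84 was the largest of the 6 tested peaks of Peg3 and was not called. The peak over the start, from 6730229 to 6730801, which also holds the start of Usp29, had 73 and 71 in Ctrl against 101 and 54 in sKO, and reads of the 2 genes cannot be told apart there. Summed over their own peaks, Usp29 was at -0.19 and Zim1 at -0.06, and neither was called.

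The first intron of Peg3 is known for tandem binding sites of the factor YY1. A search on both strands for AAGATGGC, the core of its motif, found 9 matches in the strongest peak, all reading GCCATCTT on the strand of Peg3, and 2 in the next peak. Windows of 1888 bases at the centre of all 50698 autosomal Pol II S2P peaks held at least 1 match in 12.9%. The only window with 9, the most in any window, was that of the strongest peak of Peg3 itself. The 300 bases with the densest matches are shown with GCCATCTT in capitals, at chr7:6727758-6728057 on the minus strand of mm10, and they hold no annotated exon of Peg3. The 250 bases before the RefSeq start of Peg3, at chr7:6730420-6730669 on the same strand, follow with their 8 CpG in capitals.
Peg3 first-intron window: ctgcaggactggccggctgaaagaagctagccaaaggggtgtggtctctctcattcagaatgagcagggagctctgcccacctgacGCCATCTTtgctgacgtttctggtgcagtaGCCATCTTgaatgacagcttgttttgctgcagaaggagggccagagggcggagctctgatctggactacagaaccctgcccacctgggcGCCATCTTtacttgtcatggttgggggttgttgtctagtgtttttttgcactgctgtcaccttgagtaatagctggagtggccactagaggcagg
Peg3 promoter: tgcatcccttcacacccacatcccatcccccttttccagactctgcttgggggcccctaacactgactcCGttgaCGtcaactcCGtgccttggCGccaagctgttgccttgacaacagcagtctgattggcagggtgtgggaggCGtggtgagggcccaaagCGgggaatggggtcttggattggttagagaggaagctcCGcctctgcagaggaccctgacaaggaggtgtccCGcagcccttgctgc

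Igf2r summed to 380 and 620 in Ctrl against 678 and 428 in sKO for Pol II S2P, with a log2 fold change of 0.15 ± 0.42 (SE), and Airn to 210 and 360 in Ctrl against 386 and 230 in sKO. In both genes Ctrl replicate 2 and sKO replicate 1 were the high libraries, and the groups overlapped. Grb10 had 1 peak, near the end of the gene at 99 kb from its start, with 94 and 124 in Ctrl against 125 and 89 in sKO. Its neighbour Ddc had 580 and 859 in Ctrl against 674 and 436 in sKO and was not called on the deposited scale, and on equal totals it was called lower, at -0.52 (adjusted p = 0.024). Per kb of peak, Ctrl levels ranged from H19, with 194 ± 13 (SD, n = 2), through Grb10, Peg3 and Igf2r to Igf2, with 110 ± 5 (SD, n = 2), and each gene overlapped the next in this order. Over single peaks, 12 of 33 had a mean score over 50 and were tested, and 0 were called by limma, with 0 at an unadjusted p under 0.05. Of all 22353 peaks tested, 0.0447% were called higher and 0.00447% lower. On equal totals the H19 peak was called lower at an adjusted p of 0.0839, where 1.18% of all peaks were called lower.

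Genes of imprinted clusters as a group were taken from a list of 58 genes of 18 clusters, which includes the 7 genes above. Whether each of the 58 is imprinted in these cells was not tested. H4K20me1 peaks were listed with 37 of them, and 33 of these 37 were called higher on the deposited scale and none lower, which is 89.2% beside 92.3% of all genes, with a median of 0.93 beside 1.11. On equal totals 10 (27%) were called higher and 2 (5.41%) lower, beside 24.0% and 4.31% of all genes, with a median of 0.0051 beside 0.18. Outside the clusters of the 7 genes, the largest changes were those of Cd81 (2.24), Asb4 (2.16) and Commd1 (1.79), and the smallest those of Nap1l4 (0.41), Kcnk9 (0.43) and Zdbf2 (0.46), and none of these 3 was called. Cd81 encodes a tetraspanin of the cell surface, which scored 181 and 194 in Ctrl against 842 and 934 in sKO. For Pol II S2P, 22 of the 58 were tested, 0 were called by limma and 0 had an unadjusted p under 0.05, with a median of 0.04 beside 0.09. The largest changes outside the clusters were those of Kcnq1 (0.32), Trappc9 (0.16) and Inpp5f (0.13), and the smallest those of Asb4 (-0.06), Gnas (-0.05) and Ppp1r9a (-0.0044).

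Among the 5849 genes tested for both antibodies, those nearest to Grb10, Igf2r and Igf2 were found by the Euclidean distance over the 8 libraries of log2(score per kb of peak + 1). For Grb10 they were Sh3bp2, Cenpn and Ccdc77, for Igf2r Usp28, Znrf1 and Arhgef3, and for Igf2 Clstn2, Serpina16 and Actn3. The smallest distance was 0.145 for Grb10, 0.213 for Igf2r and 0.308 for Igf2.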

How the data were processed

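CUT&RUN libraries of H4K20me1 and Pol II S2P from cultured MuSCs were compared between genotypes, with 2 libraries each. According to the methods and the submitters' processing notes, reads were checked with FastQC 0.11.8, trimmed with Trimmomatic 0.39, aligned uniquely to mm10 with STAR 2.7.3a and deduplicated with Picard 2.21.7, and SICER 0.0.41 and MACS2 2.1.1 are named for peaks. The authors deposited a score per union peak and library, which is coverage normalised by S2 spike-in DNA, so no count model was used. The paper lists total and uniquely mapped reads per library. For both antibodies the sKO libraries had more of either than the Ctrl libraries, and read depth did not enter the fits.

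Scores were summed by gene identifier, or taken by peak. limma 3.58.1 in R 4.3.3 was fitted to log2(score + 1) over all autosomal features with a mean score over 50, separately per antibody, and called at an adjusted p under 0.1 and an absolute log2 fold change over 0.5. Fold changes on this scale understate changes of low scores. The fits were tested on simulated data, where 99 of 100 H4K20me1 genes (of 13752) and 78 of 95 Pol II S2P genes (of 8519) with a log2 change of 1 were recovered, with 10 and 18 false calls in the 2 simulated tables. In the deposited Pol II S2P table itself, 0 of 8531 genes were called. The simulated libraries of a group had no difference in scale. In the Pol II S2P data, replicate 1 minus replicate 2 had a median log2 difference of -0.40 in Ctrl and 0.48 in sKO. For H4K20me1 these values were -0.41 and -0.12. The simulation also changed only a small part of the genes, whereas 92.3% of all genes tested were called higher for H4K20me1 on the deposited scale. The recovered shares of either antibody therefore do not carry over to these data. Alternatives were equal totals, median-of-ratios, quantile normalisation, another pseudocount, other filters on low scores, no trend, a replicate block, peaks at least 50% inside the gene, and leaving out each library. Ratios to the surroundings or to the rest of the gene, and leaving out libraries on equal totals, were added after seeing the data. The members and lists were chosen with earlier results of these data known. All 7 members were named, with genes of their own clusters that had a peak, and of the other clusters the 3 largest and 3 smallest changes per antibody. Sequences came from the mm10 assembly and from RefSeq promoters. The genes most like Peg3 are not reported here.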

Additional observations from a re-analysis of the deposited data

Results flagged for a closer look

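In the stretches within 100 kb of the imprinted genes, 6 H4K20me1 peaks were listed with no gene and so entered no gene sum. Near H19, the peak at 142580200 on chromosome 7 changed by 2.04, the peak at 142629000 by 1.34, with 88 and 127 in Ctrl and 261 and 278 in sKO, and the peak at 142673800 by 1.31, with 79 and 112 in Ctrl and 236 and 233 in sKO. Near Meg3, the peak at 109483000 on chromosome 12 changed by 0.80, with 129 and 116 in Ctrl and 179 and 255 in sKO, and the peak at 109488200 by 0.85, with 48 and 130 in Ctrl and 145 and 141 in sKO. Near Grb10, the peak at 12104000 on chromosome 11 changed by 1.04, with 255 and 383 in Ctrl and 570 and 731 in sKO. In all 6 peaks the lower sKO library exceeded the higher Ctrl library on the deposited scale. On equal totals the peak at 142580200 was at 1.12 and was called, while the other 5 were not called, with 0.42 at 142629000, 0.39 at 142673800, -0.12 at 109483000, -0.074 at 109488200 and 0.12 at 12104000.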

How the results depend on the processing

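Counts of calls for H4K20me1 depended on the scale between libraries and on single libraries. Against 6 genes and 11 peaks called on the deposited scale, 0 genes and 3 peaks were called on equal totals, 0 and 3 with median-of-ratios, and 1 (lower) and 4 with quantile normalisation, and between 0 and 6 genes and between 1 and 12 peaks when each library was left out. Of all genes, 14.4% were called higher and 10.4% lower with median-of-ratios, and 10.3% and 11.1% with quantile normalisation, and of all peaks 14.6% and 10.2%, and 11.6% and 11.6%. For Pol II S2P, 1 gene and 1 peak were called on equal totals and 1 gene with median-of-ratios, against 0, where 0.601% of all genes were called lower with median-of-ratios. On equal totals, with median-of-ratios and with quantile normalisation, in this order, the H4K20me1 log2 fold change was -0.046, -0.22 and -0.46 for Igf2, -0.22, -0.40 and -0.42 for Meg3, -0.023, -0.20 and -0.041 for Igf2r, and -0.30, -0.48 and -0.58 for Peg3. With median-of-ratios alone it was negative for Rian (-0.14) and Grb10 (-0.14). In the same order it was -0.68, -0.89 and -1.04 for the Peg3 peak at 6703600, -0.16, -0.38 and -0.39 for that at 6709800, -0.48, -0.70 and -0.86 for the Grb10 peak at 11991600, -0.69, -0.90 and -0.87 for that at 12009400, -0.054, -0.27 and -0.30 for that at 12026800, and -0.14, -0.36 and -0.053 for that at 12038000. With each library left out, the Grb10 peak at 12026800 ranged from -0.22 to 0.015 against the rest of its gene, and Pol II S2P changes ranged from -0.20 to 0.50 for Igf2r, from -0.30 to 0.25 for Peg3 and from -0.28 to 0.21 for Grb10. Samples with the same replicate number did not deviate together (the correlation across genes was 0.041 for H4K20me1, and for Pol II S2P it was -0.043), and with a replicate block 6 genes and 11 peaks were called for H4K20me1, while no gene or peak was called for Pol II S2P. The number of libraries limits the precision, and the read depth that the paper lists per library did not enter the fits.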
